A study of Mus musculus with 8 samples.

Results

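Regulatory T cells (Tregs) labelled SRC-3KO were compared between mice that carried a tumor and mice that did not, which took 4 of the 8 libraries of the study. The members were chosen by their labels alone: every library labelled SRC-3KO, 2 without a tumor and 2 with one. The other 4 libraries are control Tregs, again 2 per state, and are used here only to show where the SRC-3KO libraries differ. All cells were splenic Tregs of C57BL/6 mice, and all but 1 library are labelled as sorted for green fluorescent protein (GFP). RNA was amplified as full-length cDNA with SMART-Seq v4, a kit for small amounts of RNA. Both SRC-3KO libraries without a tumor carry the word Tam1 in their names, and the sources used here do not say what it stands for. If it marks a treatment, that treatment and the no-tumor state cannot be told apart in SRC-3KO Tregs. The control libraries are named Foxp3-Cre, except control no-tumor replicate 1, which is named wild type and whose source is not labelled as GFP-positive. Whether the SRC-3KO libraries also carry Cre, how the gene was inactivated, the kind of tumor, and the age and sex of the mice are not stated in the labels. Nothing in the labels says that the 2 libraries of a group came from separate mice, so the spread between them may be technical.

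Tregs are CD4 T cells that carry the transcription factor Foxp3 and hold back other immune cells, through surface molecules such as CTLA-4, through uptake of IL-2 and through release of TGF-beta and IL-10. In tumor-bearing hosts, Tregs often take on an activated, tissue-seeking form with raised checkpoint receptors and homing molecules, and they can restrain immunity against the tumor. SRC-3, the product of Ncoa3, is a coactivator of the p160 family that nuclear receptors and other transcription factors recruit to switch genes on. The study set the transcriptomes of SRC-3KO and control Tregs side by side with the anti-tumor effect of the former in view, and the comparison below asks how SRC-3KO Tregs differ between hosts with and without a tumor.

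The state of the mouse and the kind of data cannot be told apart. The no-tumor libraries were deposited as raw read counts and the tumor libraries as FPKM (fragments scaled by transcript length and library size), from different tools. Counts were therefore divided by exon length, and both kinds of value were rescaled to the same total over protein-coding genes, in the way of TPM and here called by that name. Of 21862 protein-coding genes, 11361 passed a filter of at least 1 TPM in at least 2 of the 8 libraries. A gene is called higher or lower with a tumor where both tumor libraries lie on 1 side of both no-tumor libraries and the means of log2(TPM + 1) differ by at least 1. This is a description of 2 libraries against 2, with no p-value. By this rule, 5655 genes (49.8%) were higher and 1342 (11.8%) were lower in the tumor libraries of SRC-3KO Tregs. Other scalings moved the split between the directions: quantile normalization gave 2835 higher and 3082 lower, median-of-ratios scaling 3474 and 2978, and percentile ranks with a step of 10 points 2138 and 1819. The all-gene median difference was 0.997 as scaled, -0.07 after quantile normalization and 0.16 after median-of-ratios scaling, so each list below is read against the median of all genes. The same rule gave 3491 higher (30.7%) and 1088 lower (9.58%) in control Tregs.

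These shares moved with properties of the genes. The difference is the mean log2(TPM + 1) with a tumor minus that without, and its median over all genes was 0.60 in controls. In SRC-3KO Tregs the median ran from -0.64 in the eighth of genes with the shortest exon length to 1.61 in the eighth with the longest, and from 0.31 in the eighth lowest in GC content to 1.58 in the highest. In controls the corresponding medians ran from -0.05 to 0.78 for length and from 0.79 to 0.08 for GC content. Most results below are therefore also given after a smooth trend with exon length and GC content was removed from each library, called the adjusted value. After adjustment 2358 genes (20.8%) were higher and 2756 (24.3%) were lower in SRC-3KO Tregs, and 1906 (16.8%) and 2332 (20.5%) in controls. The adjusted medians over all genes were -0.06 in both genotypes. A dependence on level remained: the adjusted median was -0.79 among the eighth of genes with the highest mean level.

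**Figure D1:**
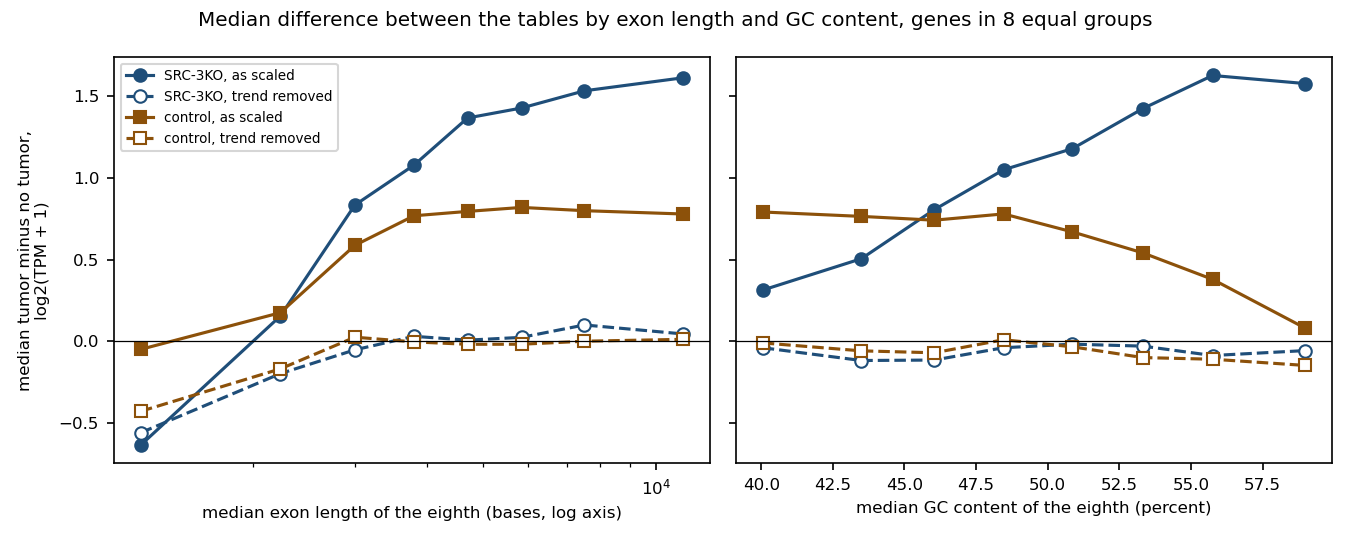
Median difference (tumor minus no tumor, log2(TPM + 1), y axis) of genes in 8 equal groups by exon length in bases (left, log axis) or GC content in percent (right), for SRC-3KO (circles) and control (squares), as scaled (filled, solid) and after removal of the trend (open, dashed). As scaled, the SRC-3KO medians climb from -0.64 to 1.61 with length, and after adjustment the longest eighth lies at 0.04 while the shortest stays at -0.56.

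The 2 libraries of each SRC-3KO group resembled each other closely. Spearman's rho across genes, which are not independent of each other, was 0.966 between the no-tumor libraries and 0.985 between the tumor libraries, against 0.741 to 0.747 between states. The no-tumor libraries held 27452922 and 31075452 counts in all, and read depth is unknown for the tumor libraries, whose FPKM values summed to 416186 and 408458. Control no-tumor replicate 1 stands apart, with a rho of 0.7045 to its own replicate, and control tumor replicate 2 held many transcripts of neutrophils and monocytes. Control no-tumor replicate 2 also held neutrophil transcripts. Values of control libraries are given with these limits.

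Ncoa3 (ENSMUSG00000027678, chromosome 2, 165992636 to 166073242, plus strand, GRCm38), the gene of SRC-3, was present in all 4 SRC-3KO libraries. It stood at 13.9 and 8.39 TPM without a tumor and 153 and 92.3 TPM with one, and at 53.6 and 20.3 TPM in control libraries without a tumor and 104 and 131 TPM with one. The SRC-3KO libraries were the lower pair without a tumor and overlapped the controls with a tumor. No source says which exons were deleted, so the total over the gene does not check the labels, and the libraries are called SRC-3KO as labelled.

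The genes that define Tregs were present in all 4 SRC-3KO libraries, and most stood higher with a tumor. Of 20 identity genes measured, 15 were higher and 0 lower with a tumor, and 9 were higher and 0 lower after adjustment. The list's median lay 0.57 above that of all genes as scaled and 0.97 above it after adjustment. Foxp3 (ENSMUSG00000039521, chromosome X, 7573644 to 7595245, plus strand, GRCm38) stood at 12.8 and 5.53 TPM without a tumor and 64.7 and 95.8 TPM with one. The states did not overlap, with a difference of 3.07 as scaled and 0.83 after adjustment, so the gene met the rule as scaled and not after adjustment, and 31.5% of its exon length overlaps another annotated gene. Foxp3 in controls was at 162 and 13.3 TPM without a tumor and 50.96 and 42.7 TPM with one.

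Among surface proteins of the identity list, the gap was widest for Itgae (ENSMUSG00000005947, chromosome 11, 73090583 to 73147446, plus strand, GRCm38), which encodes the integrin CD103 that binds E-cadherin on epithelium. Itgae was at 2.39 and 1.60 TPM without a tumor and 134 and 115 TPM with one, and its adjusted difference was 3.79. Nrp1, the gene of neuropilin-1, a surface receptor typical of thymus-derived Tregs, was at 3.99 and 4.52 TPM without a tumor and 179.6 and 112 TPM with one, with an adjusted difference of 3.67. Nt5e, which encodes the ectoenzyme CD73 that makes adenosine, was at 11.8 and 5.32 TPM without a tumor and 196 and 142 TPM with one (adjusted 2.52). Both tumor libraries stood above both no-tumor libraries for these 3 genes. Ctla4, the gene of the inhibitory receptor CTLA-4, was at 332 and 294 TPM without a tumor and 745 and 959.7 TPM with one, with differences of 1.43 as scaled and 1.78 adjusted.

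For other identity genes the gap depended on the scale. Il2ra, which encodes CD25, a chain of the receptor for IL-2, was at 885 and 831 TPM without a tumor and 1600.5 and 2066 TPM with one, with a difference of 1.08 as scaled, 0.23 adjusted, and -0.0001 when TPM was rescaled by median of ratios. Ikzf2, the gene of the transcription factor Helios, was at 53.7 and 44.6 TPM without a tumor and 182 and 143 TPM with one (adjusted 0.61), and Ikzf4, the gene of its relative Eos, at 13.6 and 14.8 TPM without a tumor and 149.7 and 152 TPM with one (adjusted 1.35). The 2 most abundant identity genes did not meet the rule. Tnfrsf4, the gene of the costimulator OX40, was at 7774 and 8027 TPM without a tumor and 4927 and 5128 TPM with one, and Tnfrsf18, the gene of GITR, was at 4474 and 3961 TPM without a tumor and 3749 and 3394 TPM with one. For both of these receptors the tumor libraries were the lower pair, by less than 1 on the log2 scale.

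**Figure D2:**
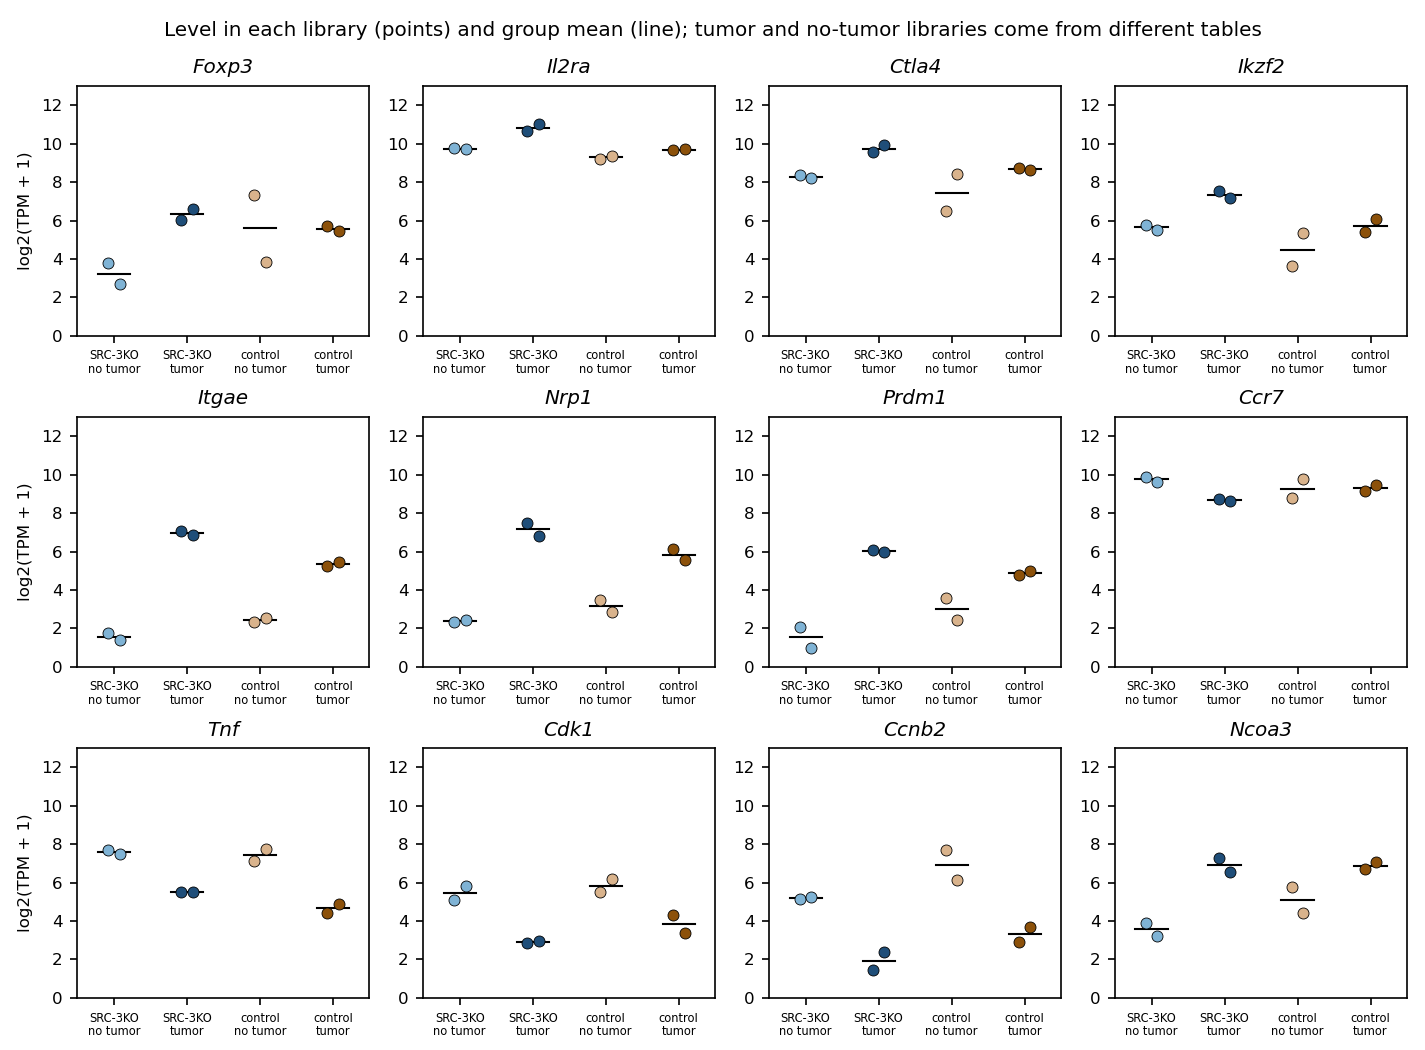
Level of 12 genes as log2(TPM + 1) (y axis, the same in every panel) in each library (points) with the group mean (line), by group on the x axis. In SRC-3KO, Itgae, Nrp1 and Prdm1 are far higher in the tumor libraries, while Tnf, Cdk1 and Ccnb2 are lower. Tumor and no-tumor libraries come from different tables.

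Genes of T cells in general were split, with shares near those of all genes as scaled. Of 18 measured, 10 were higher and 2 lower, against 49.8% and 11.8% of all genes. After adjustment 5 were higher and 2 lower, against 20.8% and 24.3% of all genes. Cd4 was at 28.7 and 34.2 TPM without a tumor and 432 and 380.1 TPM with one (adjusted 2.13), and Gata3, a transcription factor of T helper and activated Treg cells, at 39.7 and 40.95 TPM without a tumor and 576 and 544 TPM with one (adjusted 2.61). Cd247, the zeta chain of the T cell receptor complex, was at 28.1 and 36.3 TPM without a tumor and 460.2 and 484 TPM with one, although 60.3% of its exon length overlaps another annotated gene. Its partner Cd3g was at 1029 and 1029 TPM without a tumor and 1215 and 1234 TPM with one, and Cd3d at 1861 and 1783 TPM without a tumor and 791 and 732 TPM with one. Of these 3 chains of 1 complex, Cd247 alone met the rule as higher, Cd3g was higher in both tumor libraries by less than 1, and Cd3d met the rule as lower as scaled but not after adjustment (-0.92). These receptor chains are needed together at the cell surface. Lat, an adaptor below the receptor, was at 507 and 511 TPM without a tumor and 471 and 464 TPM with one, lower in both tumor libraries by less than 1 (adjusted -1.72).

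B cell markers were lower in the tumor libraries of SRC-3KO Tregs. Summed over 16 B cell genes, the level was 174 and 71.2 TPM without a tumor and 43.9 and 43.3 TPM with one, and of 10 measured members 0 were higher and 5 lower (0 and 7 after adjustment). Cd79a, a chain of the B cell receptor, was at 35.1 and 7.24 TPM without a tumor and 1.27 and 1.03 TPM with one, and Ly6d, a surface protein of B cells, at 35.5 and 23.9 TPM without a tumor and 1.53 and 3.89 TPM with one. The defining B cell gene Ms4a1 was at 1.66 and 0.042 TPM without a tumor and 0.019 and 0.267 TPM with one. Jchain, the joining chain of secreted antibodies, was at 79.3 and 49.4 TPM without a tumor and 0 and 1.93 TPM with one, and Tnfrsf17, a receptor of plasma cells, at 5.80 and 1.93 TPM without a tumor and 0 and 0 TPM with one. The sum over the 9 plasma cell genes moved the other way, from 351 and 354 to 1063 and 1111 TPM. That sum includes Xbp1, Prdm1 and Irf4, which activated Tregs also express. Xbp1 and Prdm1 met the rule as higher, and Irf4 was higher in both tumor libraries by less than 1 as scaled (adjusted -0.35). Of the 9 genes, 2 were higher and 3 lower as scaled, and 2 were higher and 6 lower after adjustment. In bulk libraries, fewer cells of a type and less RNA per cell cannot be told apart.

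Myeloid markers lay on both sides in SRC-3KO Tregs. The shares of all genes, for comparison, were 49.8% higher and 11.8% lower as scaled, and 20.8% and 24.3% after adjustment. Of 9 monocyte and macrophage genes measured, 2 were higher and 2 lower as scaled, and 2 were higher and 4 lower after adjustment, with an adjusted median -0.03 from that of all genes. The sum over all 15 monocyte and macrophage genes was 123 and 216 TPM without a tumor and 49.6 and 51.9 TPM with one. Lyz2, which encodes the lysozyme of macrophages and neutrophils, was at 31.5 and 137 TPM without a tumor and 2.48 and 2.56 TPM with one, and Apoe, an apolipoprotein made by macrophages, at 63.9 and 44.6 TPM without a tumor and 4.49 and 4.91 TPM with one. For both genes, each tumor library lay well below each no-tumor library, and these genes made up most of the sum without a tumor. In contrast, Ccr2 and Ly6c2, genes of inflammatory monocytes, met the rule as higher, at 0.416 and 0 TPM and 1.61 and 4.11 TPM without a tumor and 2.16 and 3.75 TPM and 5.67 and 16.2 TPM with one. The defining macrophage genes Adgre1 and Cd14 were at 1.74 and 0.404 TPM and 0 and 1.21 TPM without a tumor and at 0.034 and 0 TPM and 0.344 and 0.196 TPM with one. Neutrophil genes summed to 0.193 and 1.84 TPM and 5.71 and 0.803 TPM, with 0 members higher or lower, against 0.240 and 1239 TPM in control libraries without a tumor and 14.6 and 12380.1 TPM with one. Of 11 genes of CD8 T and NK cells measured, 2 were higher and 2 lower as scaled, and 1 was higher and 3 lower after adjustment. Tbx21, the gene of the transcription factor T-bet, was higher on both scales, at 22.9 and 34.1 TPM without a tumor and 233 and 292 TPM with one, and Prf1, the gene of perforin, was higher as scaled only, at 0.117 and 0.135 TPM without a tumor and 1.74 and 0.961 TPM with one. Lower were Ccl5, a chemokine gene, at 67.8 and 20.1 TPM without a tumor and 2.96 and 4.89 TPM with one, and Nkg7, a granule membrane protein, at 1610 and 1040 TPM without a tumor and 162 and 93.6 TPM with one, while Cd8a was at 0.304 and 0.839 TPM without a tumor and 0.220 and 1.14 TPM with one. The part of these other-cell transcripts in the results below was not tested.

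**Figure D3:**
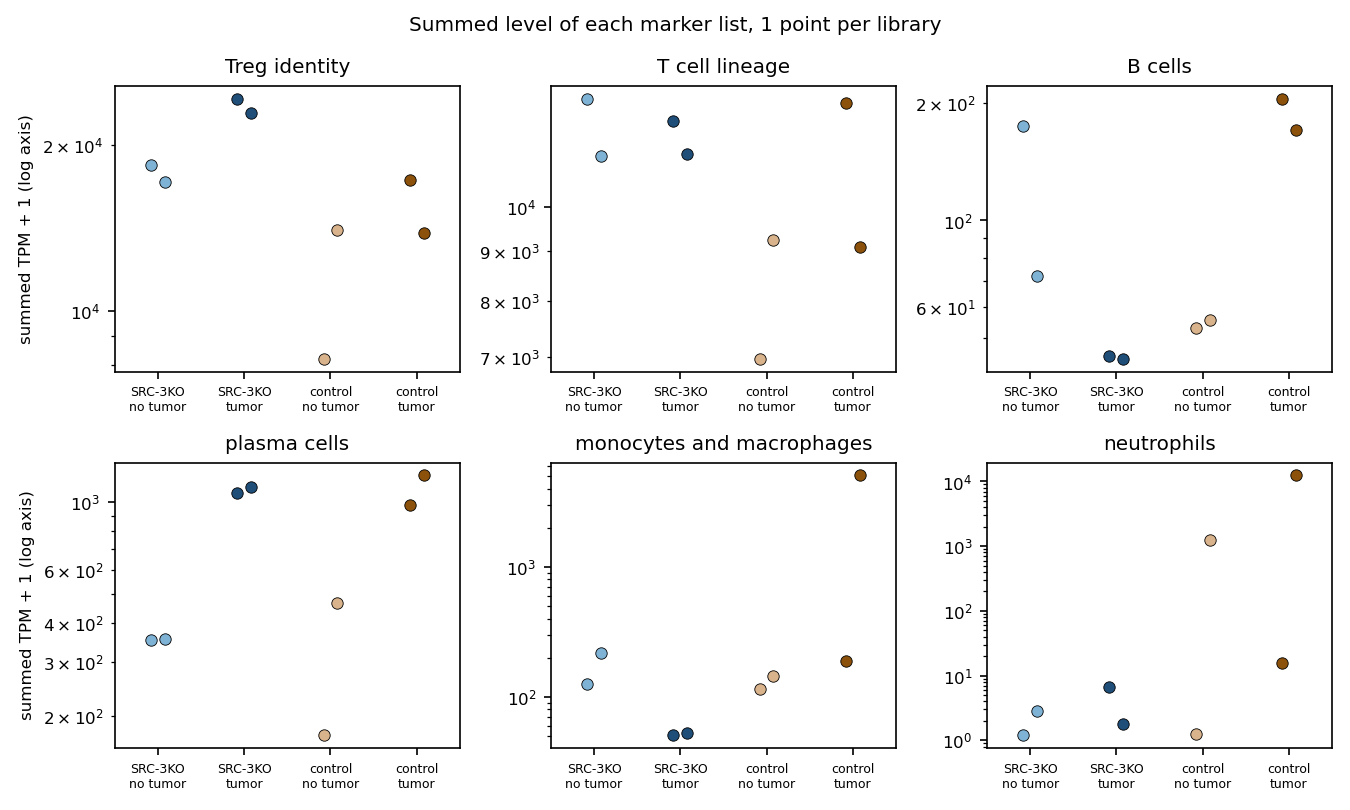
Summed level of 6 marker lists (y axis, TPM + 1, log axis) in each of the 8 libraries (points), by group on the x axis. B cell and monocyte sums are lowest in the SRC-3KO tumor libraries, and control tumor replicate 2 has by far the highest neutrophil and monocyte sums.

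Genes of suppressive and effector Tregs formed the list with the highest median after adjustment among the 36 lists. Of 19 measured, 15 were higher and 0 lower, and 14 were higher and 0 lower after adjustment. The median lay 1.34 above that of all genes as scaled and 2.20 above it after adjustment. In controls, 10 members were higher as scaled and 7 higher and 1 lower after adjustment. The control list median lay 0.81 above that of all genes after adjustment. No member was called in the test of the difference between genotypes.

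Transcription factors of effector Tregs come first in this list. Prdm1, which encodes Blimp-1, was at 3.24 and 1.0004 TPM without a tumor and 66.4 and 61.05 TPM with one, with an adjusted difference of 3.33. Rora, an orphan nuclear receptor of tissue Tregs and type 2 lymphocytes, was at 2.86 and 1.43 TPM without a tumor and 70.7 and 67.2 TPM with one (adjusted 3.27). Batf, a factor that cooperates with IRF4 in effector Tregs, was at 365 and 522 TPM without a tumor and 1135 and 1399.7 TPM with one, whereas Irf4 itself was at 124 and 174 TPM without a tumor and 216 and 332 TPM with one and did not meet the rule. All 4 genes were higher in each tumor library than in each no-tumor library as scaled. For Irf4 the difference was 0.86, below the all-gene median of 0.997, and its adjusted difference was -0.35.

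Receptors of the list followed. Il1rl1, the receptor of IL-33 on tissue Tregs, was barely detected without a tumor, at 0.787 and 0.417 TPM, and stood at 39.9 and 77.4 TPM with one (adjusted difference 4.23). Tnfrsf1b, which encodes TNF receptor 2, was at 38.2 and 25.03 TPM without a tumor and 669 and 499.9 TPM with one (adjusted 2.44). The checkpoint genes Pdcd1, Lag3 and Havcr2, which encode PD-1, LAG-3 and TIM-3, stood higher in both tumor libraries. Pdcd1 was at 70.5 and 53.997 TPM without a tumor and 549 and 346 TPM with one. Lag3 was at 5.24 and 8.31 TPM without a tumor and 54.7 and 88.4 TPM with one. Havcr2 was at 1.29 and 0.224 TPM without a tumor and 21.2 and 22.1 TPM with one, so 1 of its no-tumor values rests on very little signal. Ccr8, the chemokine receptor of activated Tregs in tissues, was abundant throughout, at 1861 and 1487 TPM without a tumor and 2352 and 2256 TPM with one, and did not meet the rule.

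Secreted effectors of the list come next. Il10 was at 31.7 and 17.9 TPM without a tumor and 54.3 and 84.9 TPM with one (adjusted 1.89), and Ebi3, a subunit of IL-35 and IL-27, at 33.4 and 24.6 TPM without a tumor and 113 and 157 TPM with one (adjusted 1.99). Tgfb1, the gene of the cytokine TGF-beta1, was at 32.7 and 20.9 TPM without a tumor and 335 and 333 TPM with one (adjusted 1.73). All 3 met the rule on both scales. Gzmb, the gene of granzyme B, and Areg, the gene of the repair factor amphiregulin, did not, at 131 and 208 TPM and 28.96 and 29.5 TPM without a tumor and 167 and 209 TPM and 38.2 and 42.7 TPM with one.

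**Figure D4:**
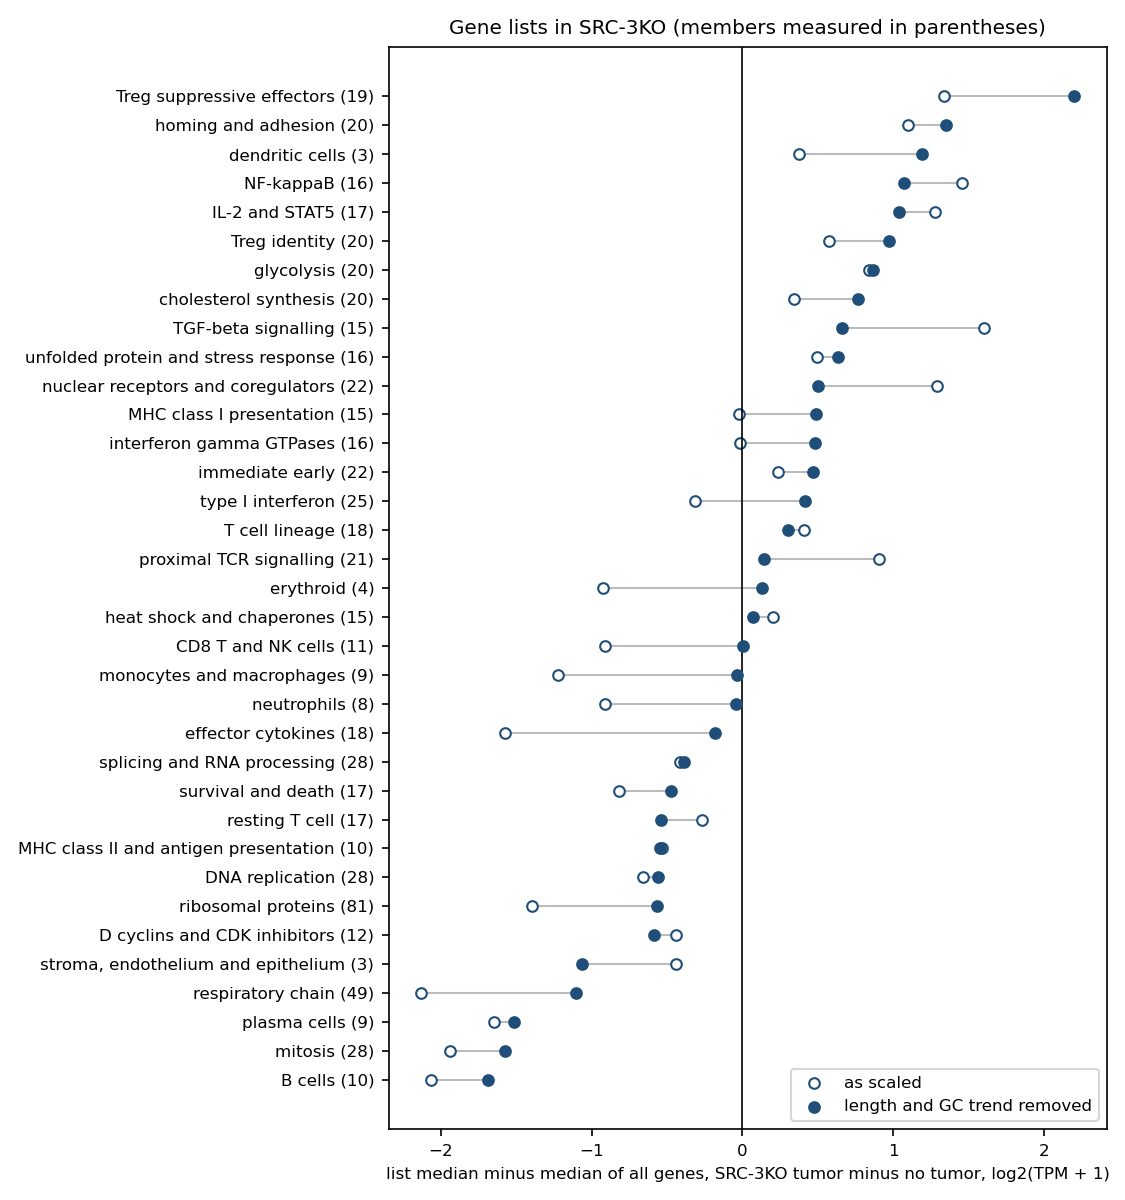
Median difference of each gene list minus the median of all genes (x axis, log2(TPM + 1), SRC-3KO tumor minus no tumor), as scaled (open circles) and after removal of the length and GC trend (filled circles), with the members measured in parentheses on the y axis. Suppressive effectors (2.20 adjusted) and homing genes (1.35) lie furthest right among T cell lists, and mitosis genes (-1.57) and the respiratory chain (-1.10) lie far left.

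Genes that store, activate and sense TGF-beta stood higher as scaled, and less so after adjustment. TGF-beta is released from a latent complex by GARP and integrins and signals through 2 receptor types to SMAD proteins. Of 15 members measured, 13 were higher and 0 lower, against 6 higher and 1 lower after adjustment. On the activation side, Itgb8, an integrin chain that frees TGF-beta, was at 5.55 and 6.61 TPM without a tumor and 79.9 and 70.3 TPM with one (adjusted 2.35), and Lrrc32, the gene of GARP, at 63.3 and 37.3 TPM without a tumor and 588 and 538 TPM with one (adjusted 0.99). Of the receptors, Tgfbr2 was at 2.80 and 5.32 TPM without a tumor and 80.1 and 73.9 TPM with one (adjusted 2.12), while Tgfbr1 was at 32.2 and 25.9 TPM without a tumor and 46.2 and 59.5 TPM with one and did not meet the rule. Of the transducers, Smad4 was at 12.5 and 11.1 TPM without a tumor and 98.96 and 102 TPM with one and Smad2 at 35.8 and 27.01 TPM without a tumor and 32.4 and 29.9 TPM with one. Smad4 thus stood higher in both tumor libraries and Smad2 did not, and its adjusted difference was -1.33.

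IL-2 is the growth and survival signal of Tregs, and it acts through JAK kinases and STAT5, with SOCS proteins and CIS as brakes. Of 17 genes of this chain, 14 were higher and 0 lower as scaled, and 8 were higher and 2 lower after adjustment. Among receptor chains, Il2rb was at 207 and 129.9 TPM without a tumor and 1425 and 1246 TPM with one (adjusted 1.03), and the shared gamma chain Il2rg at 1049.7 and 984 TPM without a tumor and 2009 and 2007 TPM with one (adjusted 0.98), just under the size the rule asks for. Jak3, the kinase bound to the gamma chain, was at 8.98 and 10.5 TPM without a tumor and 275 and 302 TPM with one (adjusted 2.41). The factors Stat5a and Stat5b were at 21.7 and 18.2 TPM and 16.3 and 12.4 TPM without a tumor, and at 198 and 273 TPM and 211 and 243 TPM with one. Both were higher in each tumor library, with adjusted differences of 1.02 and 1.89. Among the brakes, Socs3 was at 5.98 and 5.61 TPM without a tumor and 206 and 206 TPM with one and Cish, the gene of CIS, at 70.5 and 57.2 TPM without a tumor and 762 and 752 TPM with one. Socs1 was at 410.1 and 402 TPM without a tumor and 627 and 629 TPM with one, so it stood higher by less than 1 as scaled, and it was lower after adjustment (-1.17).

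NF-kappaB genes were higher with a tumor on both scales. This family of factors acts below the T cell receptor and TNF receptors, and CD30, OX40 and TNF receptor 2 signal to it. Of 16 measured, 12 were higher and 0 lower as scaled, and 9 were higher and 0 lower after adjustment. Tnfaip3, which encodes the feedback inhibitor A20, was at 2.84 and 2.67 TPM without a tumor and 99.8 and 127 TPM with one (adjusted 3.44). The subunit genes Nfkb2 and Relb of the noncanonical arm were at 23.97 and 21.1 TPM and 13.6 and 10.5 TPM without a tumor, and at 357 and 446 TPM and 136 and 116 TPM with one. Traf1, an adaptor of TNF receptors, was at 34.4 and 37.2 TPM without a tumor and 329.7 and 443 TPM with one (adjusted 1.03). The canonical inhibitor Nfkbia was abundant and overlapped between states, at 1422 and 1186 TPM without a tumor and 1043 and 1209 TPM with one.

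Genes of proximal T cell receptor signalling were higher as scaled, but their median was near that of all genes after adjustment (0.14 above it). Of 21 measured, 16 were higher and 0 lower, against 4 higher and 1 lower after adjustment. The adjusted share higher was close to the 20.8% of all genes, and the adjusted share lower was under their 24.3%. Nfatc1 and Nfatc2, factors switched on by calcium, were at 21.3 and 16.7 TPM and 2.96 and 1.80 TPM without a tumor, and at 289.8 and 233 TPM and 65.8 and 62.4 TPM with one. Vav1 and Malt1, a guanine nucleotide exchange factor and a paracaspase, were the other members that met the rule on both scales, with adjusted differences of 1.22 and 1.60. Lck, the kinase that starts the signal, was at 349 and 322 TPM without a tumor and 1313 and 1150.4 TPM with one (adjusted 0.62).

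Immediate early genes, which receptor signals switch on within minutes, were mixed. Of 22 measured, 11 were higher and 2 lower as scaled, shares close to those of all genes (49.8% and 11.8%). After adjustment 7 were higher and 3 lower, against 20.8% and 24.3% of all genes. The list's median lay 0.24 above that of all genes as scaled and 0.47 above it after adjustment. Egr2, a zinc finger factor, was at 23.7 and 22.3 TPM without a tumor and 297 and 296 TPM with one (adjusted 2.58), and Junb, a subunit of AP-1, at 174 and 109.6 TPM without a tumor and 1312 and 1228 TPM with one (adjusted 2.02). Nr4a1 and Nr4a3 encode related orphan receptors induced by antigen. Nr4a1 was at 54.3 and 34.5 TPM without a tumor and 484 and 362 TPM with one, and Nr4a3 at 46.6 and 44.4 TPM without a tumor and 21.3 and 21.3 TPM with one, so the relatives lay on opposite sides, also after adjustment (1.12 and -2.57). Ier2 was at 1036 and 830.5 TPM without a tumor and 455 and 372 TPM with one and Myc, a driver of growth, at 355 and 373 TPM without a tumor and 459 and 404 TPM with one. Without SRC-3KO no-tumor replicate 2, the list's median lay on the other side of that of all genes.

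Homing and adhesion genes stood higher with a tumor on both scales. Of 20 measured, 16 were higher and 0 lower as scaled, and 12 were higher and 0 lower after adjustment, and in controls 13 were higher and 1 lower as scaled. Among integrin genes beside Itgae, Itgb7, the partner chain of Itgae, was at 43.3 and 24.4 TPM without a tumor and 463 and 324 TPM with one (adjusted 1.90), and Itgal, a chain of LFA-1, at 30.7 and 28.6 TPM without a tumor and 306 and 288 TPM with one (adjusted 1.10). Itgb1 was at 47.02 and 39.5 TPM without a tumor and 275 and 219 TPM with one, again with both tumor libraries above both others. Among chemoattractant receptors, Gpr15, a receptor for homing to the large intestine, was at 11.7 and 4.95 TPM without a tumor and 72.2 and 73.7 TPM with one (adjusted 3.54). Ccr4, which guides Tregs to skin and inflamed tissue, was at 24.7 and 26.1 TPM without a tumor and 124 and 126 TPM with one, and Cxcr6 at 59.6 and 60.6 TPM without a tumor and 213 and 279 TPM with one. Both met the rule on both scales. Gpr183, a receptor for oxysterols, overlapped between states, at 413 and 516 TPM without a tumor and 436 and 539 TPM with one.

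Genes of resting T cells lay on both sides. Of 17 measured, 7 were higher and 4 lower as scaled, against 49.8% and 11.8% of all genes. After adjustment 3 were higher and 8 lower, against 20.8% and 24.3% of all genes. Those that met the rule as lower on both scales included Ccr7, the receptor for lymph node entry, at 938 and 792 TPM without a tumor and 420.3 and 391 TPM with one, and Klf2, a factor that maintains quiescence and egress, at 194 and 89.6 TPM without a tumor and 64.3 and 37.9 TPM with one. Ly6c1 was at 551 and 620.5 TPM without a tumor and 114 and 164 TPM with one, and Dapl1 at 15.2 and 12.1 TPM without a tumor and 0 and 2.03 TPM with one. In each of these 4 genes the tumor libraries were the lower pair. In contrast, S1pr1, the receptor for egress from lymphoid organs, was at 16.7 and 5.18 TPM without a tumor and 57.4 and 49.5 TPM with one, Il7r, the IL-7 receptor, at 8.67 and 5.24 TPM without a tumor and 35.2 and 41.5 TPM with one, and Satb1, a chromatin organizer, at 11.4 and 8.73 TPM without a tumor and 124 and 164 TPM with one. These 3 were higher on both scales.

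Effector cytokine and chemokine genes included several that were lower with a tumor. Of 18 measured, 4 were higher and 8 lower as scaled, and 2 were higher and 7 lower after adjustment. Tnf, the gene of tumor necrosis factor, was at 208 and 178 TPM without a tumor and 43.9 and 44.2 TPM with one (adjusted -1.85), and its neighbour Lta, the gene of lymphotoxin alpha, at 939.8 and 1084 TPM without a tumor and 287 and 354 TPM with one (adjusted -1.80). Both tumor libraries lay far below both no-tumor libraries. The chemokine genes Ccl4 and Xcl1 were at 480.0 and 399 TPM and 185 and 67.9 TPM without a tumor, and at 110.2 and 52.6 TPM and 8.91 and 9.21 TPM with one. Il2 was at 7.996 and 7.39 TPM without a tumor and 1.12 and 1.93 TPM with one. Ifng, the gene of interferon gamma, did not meet the rule, at 13.4 and 17.9 TPM without a tumor and 24.4 and 20.7 TPM with one, and Il17a was at 1.46 and 4.47 TPM without a tumor and 1.10 and 0.085 TPM with one. Il4 and Il5, cytokines of type 2 immunity, were higher on both scales but stayed low, at 4.32 and 9.22 TPM and 7.06 and 11.5 TPM with a tumor.

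Type I interferon genes lay on both sides in SRC-3KO Tregs. Type I interferon induces antiviral genes through STAT and IRF factors. Of 25 such genes measured, 10 were higher and 3 lower as scaled, against 49.8% and 11.8% of all genes. After adjustment 4 were higher and 8 lower, against 20.8% and 24.3% of all genes. Stat2, a transducer of the signal, stood higher on both scales, at 4.05 and 2.25 TPM without a tumor and 44.2 and 53.6 TPM with one (adjusted 1.68). Bst2, which tethers virus particles, was lower on both scales, at 1014 and 1219 TPM without a tumor and 366 and 469 TPM with one. The abundant target Ifi27l2a did not meet the rule as scaled, at 2241 and 1217 TPM without a tumor and 853 and 985 TPM with one. Isg15, a ubiquitin-like modifier, overlapped, at 41.7 and 53.6 TPM without a tumor and 28.01 and 50.5 TPM with one. The list lay -0.32 from the all-gene median as scaled and on the other side, at 0.41, after adjustment. In controls 17 were higher and 0 lower as scaled, against 30.7% and 9.58% of all genes. The adjusted list median in controls lay 2.07 above that of all genes. Control tumor replicate 2, which held the myeloid transcripts, was at 299.7 TPM for Isg15 against 24.4 TPM in replicate 1.

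GTPases induced by interferon gamma, which guard against intracellular microbes, and MHC class I genes were close to all genes as scaled. Of 16 GTPase list members, 8 were higher and 0 lower, and 5 and 2 after adjustment. Gbp5 was at 7.71 and 10.7 TPM without a tumor and 84.1 and 130.0 TPM with one and Gbp6 at 16.7 and 11.1 TPM without a tumor and 100.4 and 121 TPM with one, whereas the abundant Igtp was at 1383 and 1204 TPM without a tumor and 708 and 953 TPM with one and Irf1, a factor induced by interferon gamma, at 334 and 345 TPM without a tumor and 165 and 211 TPM with one. Of 15 class I genes, 7 were higher and 1 lower, and 4 and 2 after adjustment. The classical class I gene H2-K1 was at 1189 and 1006 TPM without a tumor and 7994 and 8262 TPM with one (adjusted 1.62), while its light chain B2m was at 18382 and 17369 TPM without a tumor and 8046 and 9090.2 TPM with one (adjusted -0.91). The peptide transporter genes Tap1 and Tap2 were at 50.1 and 41.7 TPM and 24.4 and 23.7 TPM without a tumor, and at 351 and 370.5 TPM and 527 and 357 TPM with one. Both list medians changed side of the all-gene median under percentile ranks, quantile normalization, the longest-transcript length and the adjustment.

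Mitosis genes were lower with a tumor, in SRC-3KO Tregs and in controls. Of 28 measured in SRC-3KO Tregs, 2 were higher and 14 lower as scaled, and 0 were higher and 20 lower after adjustment. The adjusted median lay at -1.57 from that of all genes. In controls, 0 were higher and 15 lower, and the adjusted median lay at -2.44. Control no-tumor replicate 1 stood far above its replicate for many of these genes, for example at 1363 and 37.01 TPM in replicates 1 and 2 for Cdc20, which bears on the size of the control gap. Cdk1, the kinase that drives entry into mitosis, was at 32.8 and 55.02 TPM without a tumor and 6.35 and 6.75 TPM with one (adjusted -3.76), and its partner Ccnb2, cyclin B2, at 34.9 and 37.2 TPM without a tumor and 1.77 and 4.28 TPM with one (adjusted -2.78). Ube2c, the ubiquitin-conjugating enzyme of the anaphase-promoting complex, was at 39.4 and 60.7 TPM without a tumor and 5.36 and 5.36 TPM with one, and Hmmr, a spindle protein, at 6.24 and 7.96 TPM without a tumor and 0.323 and 0.067 TPM with one. In each of these 4 genes the tumor libraries lay below the no-tumor libraries with no overlap. Cdc20, an activator of the anaphase-promoting complex, was at 22.4 and 30.1 TPM without a tumor and 21.1 and 19.7 TPM with one and did not meet the rule, and Bub1b, a checkpoint kinase, was higher at 2.49 and 3.04 TPM without a tumor and 11.1 and 12.2 TPM with one. Aurkb, a chromosome passenger kinase, did not meet the rule, at 3.04 and 4.65 TPM without a tumor and 6.19 and 5.84 TPM with one.

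Many promoters of mitosis genes carry a short element, the cell cycle genes homology region, through which the DREAM and MuvB complexes act. Its letters TTTGAA were searched on both strands from 100 bases before to 50 bases after the start in RefSeq promoters (GRCm38.p6), with no other motif searched. Of 32851 promoters in all, 8.01% held them, or 9.23% of 27025 genes. Promoters were found for 24 of the 28 mitosis genes, and 19 of these 24 genes (79.2%) held the letters. Of 13 mitosis genes with a promoter that were lower as scaled, 8 (61.5%) held them, a smaller share than among all 24. Of 22 DNA replication genes, 2 did. Windows of 60 bases follow for 6 mitosis genes, 5′ to 3′ on the strand of the gene, to show the element near the start. In capitals is a copy of TTTGAA, or its reverse complement TTCAAA, found in the searched stretch. Cdk1 held another copy in that stretch, at -15 from the start and outside the window. The Cdk1 copy printed lies at -71. A further copy near the 5′ end of the Mki67 window lies upstream of the searched stretch and is left in lower case. The first 4 genes met the rule as lower and the last 2 did not. A match describes the letters and is not evidence of binding.
Cdk1: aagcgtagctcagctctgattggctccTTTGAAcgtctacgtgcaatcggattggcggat
Ckap2l: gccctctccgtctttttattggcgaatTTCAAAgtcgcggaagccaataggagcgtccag
Mki67: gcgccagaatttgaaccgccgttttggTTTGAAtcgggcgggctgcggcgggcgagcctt
Ube2c: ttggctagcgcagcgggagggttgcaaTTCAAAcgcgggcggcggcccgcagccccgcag
Kif11: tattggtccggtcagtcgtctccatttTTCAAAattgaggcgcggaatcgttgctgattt
Top2a: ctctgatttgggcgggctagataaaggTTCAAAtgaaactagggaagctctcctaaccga
These windows lie at chr10:69352951-69353010 (Cdk1, minus strand), chr2:129297210-129297269 (Ckap2l, minus), chr7:135716445-135716504 (Mki67, minus), chr2:164769873-164769932 (Ube2c, plus), chr19:37376336-37376395 (Kif11, plus) and chr11:99024180-99024239 (Top2a, minus). Of these genes, Mki67, the proliferation marker Ki-67, was at 4.59 and 4.52 TPM without a tumor and 1.38 and 1.60 TPM with one, Ckap2l, a spindle protein, at 4.49 and 7.39 TPM without a tumor and 0.977 and 1.12 TPM with one, and Kif11, a spindle motor, at 1.85 and 3.78 TPM without a tumor and 1.89 and 1.24 TPM with one. Top2a, a topoisomerase of dividing cells, was at 12.6 and 20.6 TPM without a tumor and 11.4 and 10.8 TPM with one, lower in both tumor libraries by less than 1 as scaled.

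DNA replication genes lay on both sides. Of 28 measured, 12 were higher and 9 lower as scaled, against 49.8% and 11.8% of all genes. After adjustment 4 were higher and 12 lower, against 20.8% and 24.3% of all genes, so the lower share was above that of all genes on both scales. The helicase genes Mcm2, Mcm3 and Mcm5 were higher on both scales: Mcm2 was at 23.7 and 24.1 TPM without a tumor and 315 and 356 TPM with one, Mcm3 at 65.1 and 64.04 TPM without a tumor and 370.3 and 403 TPM with one and Mcm5 at 35.4 and 60.9 TPM without a tumor and 282 and 316 TPM with one. Mcm7 of the same complex did not meet the rule as scaled, at 93.4 and 120.1 TPM without a tumor and 199 and 204 TPM with one. After adjustment Mcm7 met the rule as lower (-1.003). Several other replication genes were lower on both scales. Pcna, the sliding clamp, was at 531 and 563 TPM without a tumor and 206 and 216 TPM with one, and Rfc4, a subunit of its loader, at 318 and 443 TPM without a tumor and 70.6 and 87.9 TPM with one. Gins1 and Gins2, subunits of the active helicase, were at 72.7 and 84.4 TPM and 64.8 and 89.5 TPM without a tumor, and at 19.6 and 23.2 TPM and 22.7 and 29.8 TPM with one, with 67.3% of the exon length of Gins2 shared with another gene. Rrm2, a subunit of ribonucleotide reductase, did not meet the rule, at 88.9 and 111 TPM without a tumor and 50.8 and 57.99 TPM with one.

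Metabolic genes lay on opposite sides by pathway. Of 20 glycolysis genes, 17 were higher and 0 lower with a tumor as scaled, and 9 were higher and 2 lower after adjustment. Hk1, the first enzyme of glycolysis, was at 11.7 and 8.46 TPM without a tumor and 272 and 223 TPM with one (adjusted 2.02), and Pfkl and Pfkp, which encode the enzyme of the committed step, were at 10.1 and 5.62 TPM and 24.8 and 24.4 TPM without a tumor and 198 and 179 TPM and 277 and 278 TPM with one. Slc2a1, the glucose transporter GLUT1, was at 11.01 and 11.9 TPM without a tumor and 121 and 115 TPM with one, and Slc16a3, a lactate exporter, at 1.21 and 1.84 TPM without a tumor and 57.2 and 40.6 TPM with one. Tpi1 was at 725 and 756 TPM without a tumor and 1092 and 901 TPM with one and Hk2 at 17.9 and 16.7 TPM without a tumor and 22.6 and 25.9 TPM with one, and neither met the rule as scaled, while Hk2 was lower after adjustment (-1.48). Gapdh, whose reads can be shared with many near-identical pseudogenes, was listed at only 14.6 and 14.4 TPM without a tumor and 134 and 112 TPM with one, so its value is uncertain.

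Nuclear-encoded genes of the respiratory chain were mostly lower. Of 49 measured, 6 were higher and 28 lower as scaled, and 2 were higher and 27 lower after adjustment. In controls, 11 were higher and 5 lower as scaled, and 5 were higher and 10 lower after adjustment, and control no-tumor replicate 1 lay far below its replicate for many of them. In complex I, Ndufa8 was at 1279 and 1288 TPM without a tumor and 297 and 294 TPM with one (adjusted -2.02), and Ndufb3 at 862 and 955 TPM without a tumor and 205 and 179 TPM with one. In complex IV, Cox4i1 was at 1652 and 1781 TPM without a tumor and 388 and 283 TPM with one and Cox8a at 3014 and 3436 TPM without a tumor and 957 and 927 TPM with one. All 4 were lower by more than 1.5 on the log2 scale with no overlap. Sdha, the flavoprotein of complex II, was an exception, at 50.8 and 48.2 TPM without a tumor and 383 and 372 TPM with one (adjusted 1.82), and Atp5b, the catalytic subunit of ATP synthase, was at 699 and 659.8 TPM without a tumor and 2611 and 2653 TPM with one. Many members of this list are short and abundant, properties that themselves moved with the difference between tables: the shortest eighth of all genes stayed at -0.56 and the most abundant eighth at -0.79 after adjustment. Ribosomal protein genes, also short and abundant, had 10 higher and 21 lower of 81, and 12 and 26 after adjustment.

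Cholesterol synthesis genes under the factor SREBP2 had shares near those of all genes (49.8% higher, 11.8% lower) as scaled. Of 20 measured, 12 were higher and 2 lower, against 8 higher and 4 lower after adjustment. The median lay 0.34 above that of all genes as scaled and 0.77 above it after adjustment. Srebf2, the gene of SREBP2, was at 13.3 and 9.97 TPM without a tumor and 204 and 221 TPM with one (adjusted 1.62), and both tumor libraries stood above both no-tumor libraries. The pathway was not uniform: Sc5d, an enzyme of the last steps, was lower at 111 and 84.2 TPM without a tumor and 40.8 and 42.6 TPM with one. Fdft1 did not meet the rule as scaled, at 73.8 and 78.3 TPM without a tumor and 81.8 and 70.7 TPM with one. It was lower after adjustment (-1.55). Fdps had the widest gap, at 2.22 and 1.58 TPM without a tumor and 258 and 255 TPM with one, with 26.7% of its exon length overlapping another gene.

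Genes of the unfolded protein response were higher as scaled in 10 of 16, with 0 lower, against 49.8% higher and 11.8% lower among all genes. After adjustment 6 of 16 were higher and 0 lower, against 20.8% and 24.3% of all genes. The list's median lay 0.49 above that of all genes as scaled and 0.64 above it after adjustment. Xbp1, a factor of the secretory pathway, was at 121 and 118 TPM without a tumor and 777 and 709 TPM with one (adjusted 1.39), and Ddit4, a stress-induced inhibitor of mTORC1, at 4.75 and 2.93 TPM without a tumor and 40.5 and 52.4 TPM with one. Heat shock genes went both ways. Hsf1, the master factor, was at 10.9 and 10.6 TPM without a tumor and 79.2 and 75.6 TPM with one. It met the rule as scaled and not after adjustment (0.50). The mitochondrial chaperone Hspd1 was at 1397 and 1609 TPM without a tumor and 392 and 465 TPM with one. Its partner Hspe1 was at 1476 and 1777 TPM without a tumor and 529.8 and 538 TPM with one. Of 15 heat shock genes measured, 8 were higher and 3 lower, against 2 higher and 5 lower after adjustment. The share higher as scaled was close to that of all genes. The heat shock median lay 0.20 above that of all genes as scaled and 0.07 above it after adjustment.

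Nuclear receptors and their coregulators, the partners of SRC-3, were higher as scaled, and lay on both sides after adjustment. Of 22 measured, 17 were higher and 0 lower, against 7 higher and 6 lower after adjustment, with a median 1.29 and 0.50 above that of all genes. Among receptors, Rora is given above, Rara, the retinoic acid receptor alpha, was at 7.30 and 6.69 TPM without a tumor and 78.1 and 80.8 TPM with one (adjusted 0.84), and Nr3c1, the glucocorticoid receptor, at 17.3 and 10.4 TPM without a tumor and 63.998 and 48.8 TPM with one (adjusted 1.08). Ahr, a ligand-activated factor of another family, was at 1.75 and 0.962 TPM without a tumor and 33.2 and 29.5 TPM with one (adjusted 2.58). Among p160 coactivators, the relatives of Ncoa3 stood at 2.32 and 4.70 TPM without a tumor and 17.4 and 20.5 TPM with one for Ncoa1 and 5.46 and 4.10 TPM without a tumor and 24.3 and 21.7 TPM with one for Ncoa2, with adjusted differences of 0.40 and 0.27, while Ncoa3 had 1.41. Of the 3 only Ncoa3 met the rule after adjustment. Carm1, the methyltransferase that SRC-3 recruits, was at 4.08 and 2.25 TPM without a tumor and 85.6 and 81.1 TPM with one, and Ep300, an acetyltransferase partner, at 1.51 and 2.27 TPM without a tumor and 25.7 and 23.9 TPM with one. Both met the rule on both scales. Med1, a Mediator subunit that contacts receptors, was at 34.004 and 30.5 TPM without a tumor and 26.4 and 28.4 TPM with one, lower in both tumor libraries by less than 1 as scaled, and met the rule after adjustment (-1.79).

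Genes with the widest gaps in both genotypes and higher levels with a tumor were genes whose exons overlap a neighbour. The 10 highest by the naming rule were Snapc1l, Rps18-ps6, Rbm42, Trex1, Rnaset2a, Lilrb4a, Ube2v1, Etfbl, Lime1 and Scamp4. Their SRC-3KO no-tumor values ran from 0 to 0.548 TPM and their tumor values from 199 to 489 TPM. The share of their exon length that overlaps another gene ran from 27.2% to 100%. When all genes with any exon overlap were left out, 49.1% of the rest were higher with a tumor, against 49.8% with them. The 10 lowest were Cwc27, Sarnp, Xrcc4, Hmox2, Med27, Rwdd1, Akr1c18, Icam2, Id3 and Eno3. Id3, an inhibitor of E proteins, was at 429 and 276 TPM without a tumor and 27.5 and 21.7 TPM with one, and Icam2, an adhesion molecule, at 241 and 228 TPM without a tumor and 20.7 and 21.99 TPM with one. Neither overlaps another gene.

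Other genes were named because, as scaled, they had a gap in SRC-3KO Tregs and a smaller or opposite one in controls, so this contrast is a description of the choice. The 10 higher genes included Tnfrsf8, Axl, Bhlhe40, Bcam, Stx11, Maged1, Irf5, Ptpn5 and Tfip11. Tnfrsf8, the gene of the TNF receptor family member CD30, was at 2.35 and 1.13 TPM without a tumor and 195 and 260.4 TPM with one in SRC-3KO, and at 32.2 and 6.13 TPM without a tumor and 29.8 and 50.2 TPM with one in controls. Bhlhe40, a transcription factor of activated T cells, was at 4.98 and 3.08 TPM without a tumor and 295 and 221 TPM with one in SRC-3KO, and at 161 and 10.7 and 135 and 205 TPM in controls. For 10 of the 10 genes, control no-tumor replicate 1, the library that stands apart, was above its replicate. The lower genes were Jchain, Gsta4, Pfdn4, Lyz2, Serf1, Anapc10, Apoe, Ccl17, Rpp38 and Mtln. Jchain, Lyz2, Apoe and Ccl17 among them are known as transcripts of plasma cells, macrophages or dendritic cells. For each of the 10 except Apoe, control no-tumor replicate 1 was below its replicate. After adjustment the control gaps of some were larger than as scaled and in the same direction as in SRC-3KO, as for Mtln (-2.88 in SRC-3KO and -2.04 in controls), Pfdn4 (-2.89 and -2.02) and Rpp38 (-2.68 and -1.79).

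The tumor gap was then compared between genotypes in the 1 test that uses differences within tables alone, limma on log2(TPM + 1) with all 8 libraries. Of 11361 genes, 0 were called higher and 0 lower at an adjusted p under 0.05 (0.0%). At an unadjusted p under 0.05 there were 1162 higher (10.2%) and 197 lower (1.73%). This split moved with the scale: it was 595 and 320 with the length and GC trend removed. Median-of-ratios scaling gave 691 and 418, and quantile normalization 759 and 372. Separate fits of the counts (edgeR) and the FPKM (limma), compared gene by gene over 9229 genes, also called 0 either way, with 335 higher and 93 lower at an unadjusted p under 0.05. Itgae had a difference of 2.47 ± 0.54 (SE, limma unadjusted p = 0.00295, adjusted p = 0.376) between the SRC-3KO and the control gap, and was higher with a tumor in both genotypes. Stat5a had 3.09 ± 0.78 (limma adjusted p = 0.376), and Tnfrsf8 had 5.04 ± 1.07 (limma adjusted p = 0.376). At the low end, Apoe had -5.09 ± 1.15 (limma adjusted p = 0.376) and Ly6d -6.31 ± 1.23 (limma adjusted p = 0.376). None of these passes the threshold, so none is shown to differ between the genotypes. Apoe was called when the length and GC trend was removed (adjusted p = 0.0389) and without control no-tumor replicate 1 (adjusted p = 0.0177), in limma. Over the settings tried, the smallest adjusted p of any gene ran from 0.000443 to 0.781. Without control no-tumor replicate 2, which leaves only the replicate that stands apart, 4314 genes were called higher and 2177 lower.

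**Figure D5:**
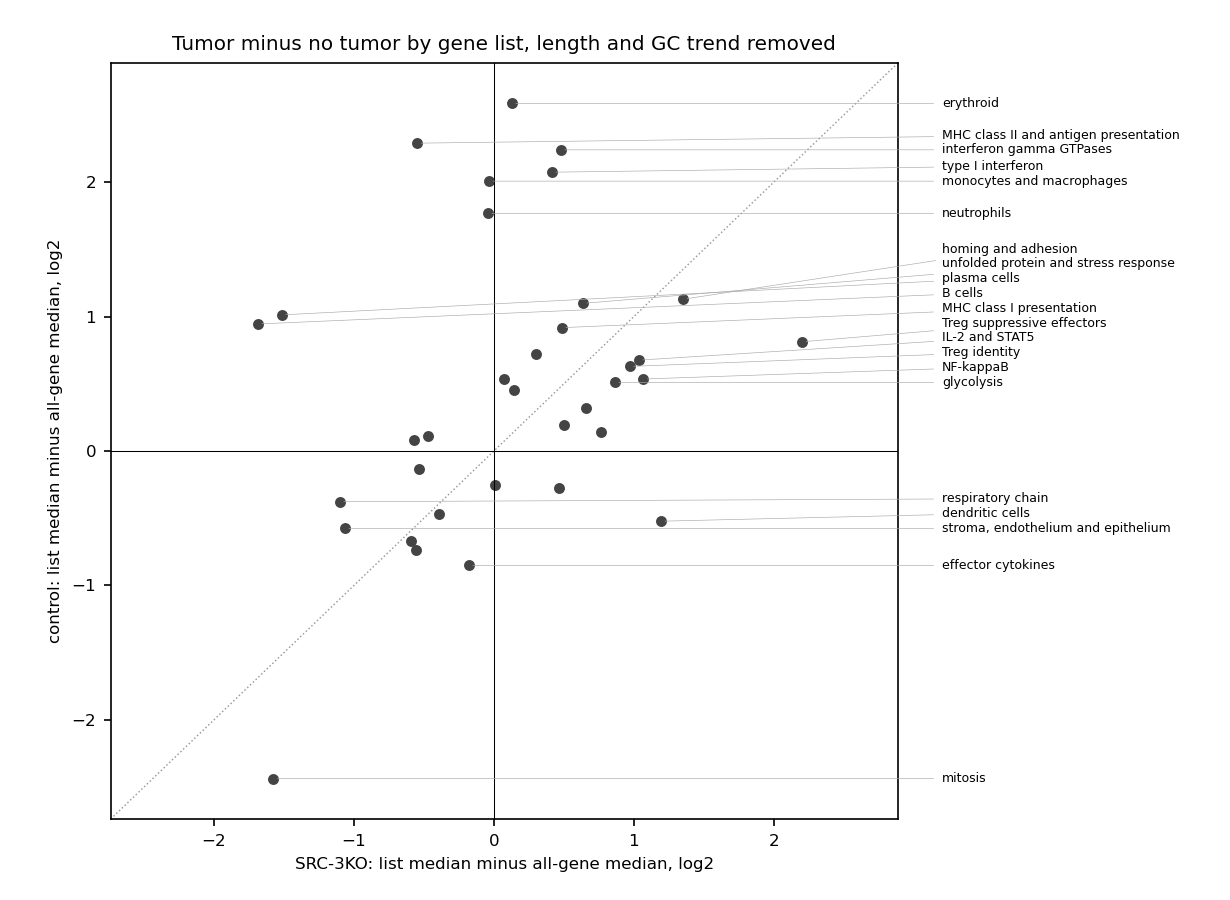
Median difference of each gene list minus that of all genes, after removal of the length and GC trend, in SRC-3KO (x axis, log2) and control (y axis, log2), with the line of equality dotted. Mitosis lies far below 0 in both (-1.57 and -2.44), and B cell markers lie at -1.69 in SRC-3KO and 0.94 in control. The interferon, MHC class II, neutrophil and monocyte lists lie between -0.55 and 0.48 in SRC-3KO and between 1.77 and 2.29 in control.

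The comparisons in the genotypes share no library, but the same tables separate the states in both. Of the genes higher with a tumor in SRC-3KO after adjustment, 1225 were also higher in controls, which is 52.0% of the SRC-3KO and 64.3% of the control genes. Of those lower, 1333 were shared, which is 48.4% and 57.2%. MHC class II genes, expressed by B cells and myeloid cells, had an adjusted median of -0.55 against all genes in SRC-3KO Tregs, where the states overlapped for H2-Ab1 as scaled, at 115 and 50.7 TPM without a tumor and 46.7 and 58.5 TPM with one, and H2-Ab1 was lower after adjustment (-1.93). In controls H2-Ab1 stood at 209 and 39.9 TPM without a tumor and 313 and 3168 TPM with one, and Ms4a1 at 0.124 and 0 and 2.25 and 4.93 TPM. The control tumor libraries thus held more B cell transcripts than the SRC-3KO tumor libraries, where Ms4a1 was at 0.019 and 0.267 TPM. Monocyte and macrophage genes summed to 188 and 5038 TPM in the control tumor libraries, against 49.6 and 51.9 TPM in the SRC-3KO tumor libraries. In control tumor replicate 1, Apoe made up 110 TPM of that sum. Lyz2 stood at 1.12 TPM there, below the 2.48 and 2.56 TPM of the SRC-3KO tumor libraries. The part of these transcripts in the differences between genotypes was not tested.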

How the data were processed

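Splenic Treg RNA was measured in 8 libraries, 2 for each of 4 groups given by the labels. The submitters' processing notes name FastQC, Trim Galore, STAR, featureCounts, edgeR and mm10, with no versions. The no-tumor table was deposited as raw counts per gene, and featureCounts is the counter those notes name. The tumor table holds FPKM values that the authors made with StringTie, per the file headers. No source used here gives the annotation release or strand setting, so genes that overlap on opposite strands cannot be told apart. Library totals and their limits stand in the report.

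Tables were joined by gene identifier (55487 genes each), and 21862 protein-coding genes with an exon length in GENCODE vM21 were kept. Counts were divided by exon-union length, both units were rescaled to the same total as TPM, and log2(TPM + 1) was taken, with a filter of 1 TPM in 2 libraries. No test was made across tables. The difference between genotypes was tested with limma 3.58.1 (trend, two-sided, Benjamini-Hochberg, 0.05) in R 4.3.3, and with edgeR 4.0.16 for counts in 1 alternative. The length and GC trend (mgcv 1.9.3, tensor product smooth, k = 6) was added after seeing the data. The fits were tested on simulated data. A difference understates the change of genes with low TPM, because of the pseudocount of 1.

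Named genes were, first, up to 10 each way with the widest gap between the nearest libraries, in both genotypes or in SRC-3KO mainly, with at least 20 TPM. To these were added up to 4 members per list with the largest gap, 1 or 2 abundant members per list that did not meet the rule, and Ncoa3, Foxp3, Il2ra, Ctla4 and Ikzf2. Members named beyond this rule were chosen after their values were seen. The libraries and gene lists were chosen with earlier results of these data known. Some named genes are not reported here. Alternatives covered scaling, pseudocount, filter, gene length, size of difference, gene classes left out, each library left out, and a replicate block.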

Additional observations from a re-analysis of the deposited data

Results flagged for a closer look

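The summed levels of B cell genes and of monocyte and macrophage genes lay in opposite directions in the genotypes, and this difference was not tested. Summed over B cell genes, the SRC-3KO tumor mean minus the no-tumor mean was -78.82 TPM, with both tumor libraries below both no-tumor libraries, and the control value was 132.91 TPM, with both above. Summed over monocyte and macrophage genes, the values were -118.89 TPM in SRC-3KO and 2484.68 TPM in controls, where control tumor replicate 2 alone held 5038 TPM and replicate 1 held 188 TPM. In SRC-3KO the monocyte sum rested mostly on Lyz2 and Apoe, and 2 other members were higher with a tumor. The plasma cell sum was higher with a tumor in both genotypes. It was 351 and 354 TPM without and 1063 and 1111 TPM with a tumor in SRC-3KO. In controls it was 171 and 465 TPM without and 975 and 1216 TPM with a tumor. The sum includes Xbp1, Prdm1 and Irf4, which activated Tregs also express. Of the 9 plasma cell genes in SRC-3KO, 2 were higher and 6 lower after adjustment. Their adjusted median lay at -1.52 from that of all genes. The groups hold 2 libraries each, too few to test a single library as an outlier.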

How the results depend on the processing

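The count of genes higher in SRC-3KO tumor libraries (5655) was 2138 by percentile rank, 2835 after quantile normalization, 3474 with median-of-ratios scaling, 2358 with the length and GC trend removed, 3568 without genes with exon overlap and 3199 at a log2 difference of 2. The count lower (1342) was 3082, 2978, 2756, 842 and 257 under the last 5 of these settings in the same order. In controls, the count higher (3491) was 1484 by percentile rank, 1887 after quantile normalization, 1906 with the trend removed, 2112 without overlapping genes and 1569 at a log2 difference of 2. The control count lower (1088) was 2302 after quantile normalization, 1728 with median-of-ratios scaling, 2332 with the trend removed, 668 without overlapping genes and 362 at a log2 difference of 2. Leaving out 1 library gave 5577 to 5828 higher and 1336 to 1449 lower in SRC-3KO, and 3642 to 4934 higher and 1277 to 2408 lower in controls, with 2408 without control no-tumor replicate 2. The limma test of the difference between genotypes called 8 genes higher and 1 lower with no filter on low values, 0 and 1 with the trend removed, and 0 to 4314 higher and 0 to 2177 lower when 1 library was left out, the upper values without control no-tumor replicate 2. It called 1 gene lower, Apoe, without control no-tumor replicate 1.

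The replicate numbers are shared by the tumor libraries of both genotypes. Deviations of same-numbered tumor libraries had a correlation of 0.029 across genes. Control tumor replicate 2 held many myeloid transcripts, which enter this value. Whether the shared number marks a shared batch was not tested. With the replicate block the test called 0 genes higher and 0 lower, with 793 and 169 at an unadjusted p under 0.05. Of 35 lists with at least 3 members, 21 stayed on the same side of the all-gene median in the 15 settings run. Among 230 named genes, reversals were seen for H2-Oa (-1.89 points by percentile rank, -0.24 by quantile normalization), H2-DMb1 (-2.31 and -0.30), Prf1 (-0.015 by quantile normalization), Il2ra (-0.0001 by median-of-ratios scaling), and Ddx39b (-0.80) and H2-DMa (-0.59) with the trend removed. Short of a reversal, the difference changed by more than the spread between replicates for 191 named genes with the trend removed. It did so for 205 after quantile normalization and for 214 with median-of-ratios scaling. These 3 settings also shifted the median of all genes. The causes were not tested. Depth limits the no-tumor values of genes near 0 TPM, and that of the tumor libraries is unknown.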

Other observations

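Cell cycle entry and death genes, which the report does not describe, lay on both sides in SRC-3KO Tregs. Among all genes, 49.8% were higher and 11.8% lower as scaled, and 20.8% and 24.3% after adjustment. Of 12 D cyclin and CDK inhibitor genes measured, 3 were higher and 2 lower with a tumor, and 2 and 4 after adjustment. Ccnd3, cyclin D3, was at 8.77 and 8.34 TPM without a tumor and 283 and 274 TPM with one, and Gadd45g, a stress-induced growth brake, at 642 and 603 TPM without a tumor and 97.6 and 120.2 TPM with one. Its relative Gadd45b overlapped between the states, at 322 and 269 TPM without a tumor and 205 and 300.3 TPM with one, so members of 1 family differed. Of 17 survival and death genes, 5 were higher and 1 lower, and 2 and 6 after adjustment. The death receptor gene Fas was at 263 and 167 TPM without a tumor and 84.1 and 62.7 TPM with one, lower on both scales. Bcl2, an inhibitor of apoptosis, was at 24.2 and 17.7 TPM without a tumor and 113 and 53.02 TPM with one, higher as scaled and not after adjustment (0.33).

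Of 28 splicing and RNA processing genes, 9 were higher and 0 lower as scaled, and 1 was higher and 6 lower after adjustment. Hnrnpu, an RNA-binding protein of the nucleus, was the member higher on both scales, at 102 and 85.9 TPM without a tumor and 499.9 and 481 TPM with one. Srsf7, a splicing factor, was lower in both tumor libraries by less than 1, at 1060.4 and 1034 TPM without a tumor and 528 and 557 TPM with one.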
